A study of Mus musculus with 12 samples.

Results

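The S100 genes code for small calcium-binding proteins, and 10 of them were followed here across mouse liver tumors and non-tumoral livers: S100a1, S100a4, S100a6, S100a8, S100a9, S100a10, S100a11, S100a13, S100a16 and S100g. They are 10 of the 17 S100 symbols among the 24421 gene symbols counted, and were selected on these measurements: the family was picked because the S100a11 level was higher in p21Tert tumors than in p21Tert livers. The other 7 S100 symbols reached at most 8 reads in any library, or 0.346 counts per 1000000 counts (CPM). All 10 genes had enough reads to enter the fit, but S100g did so through the tumors in which it is high and no other library, so its calls are not used.

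The libraries hold poly(A) RNA of 6 mice, with 1 tumor and 1 piece of non-tumoral liver from each. In p21Tert mice the catalytic subunit of telomerase, Tert, is expressed from the promoter of p21 (Cdkn1a), and in p21TertCi mice a catalytically inactive Tert is expressed in the same way. There are 4 p21Tert mice, with the tumors T-HCC662, T-HCC663, T-HCA992 and T-HCC941, and 2 p21TertCi mice, with TCi-HCC981 and TCi-HCA984. The livers are called by their labels p_961, p_663, NT_992 and p_941 in p21Tert mice and L981_CI and L984_CI in p21TertCi mice. All mice were over 18 months old, were kept on a standard diet and bore tumors, so that every liver is that of a tumor-bearing transgenic mouse and no wild-type liver was analysed here. Tumors are further described by the mutations found in their exomes, with Ctnnb1, the gene of β-catenin, mutated in T-HCC662 and T-HCC663, Egfr or Hras mutated in T-HCC941 and TCi-HCC981, and neither class of mutation in T-HCA992 and TCi-HCA984. Both Ctnnb1-mutated tumors came from p21Tert mice. The liver p_961 carries the number of T-HCC662 in the study's own table, and it was taken as the liver of that mouse.

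Between 14571716 and 26170661 reads were counted on genes in each library, so that 3 reads, the smallest amount treated here as measured, correspond to 0.107 to 0.231 CPM. Tert itself was read in every library, at 10.7 to 17.5 CPM in p21Tert livers, 4.62 to 26.1 CPM in p21Tert tumors, 11.1 to 12.9 CPM in p21TertCi livers and 15.7 to 17.1 CPM in p21TertCi tumors. The libraries were hepatic in content, since 5 hepatocyte markers summed to 31744 to 56214 CPM in the livers and to 20321 to 93156 CPM in the tumors. Markers of other cells moved between libraries. The summed level of 8 macrophage and monocyte markers was 1163 CPM in the p21TertCi liver L981_CI and 736 CPM in TCi-HCC981, against 115 to 496 CPM in the other 10 libraries.

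S100 proteins bind calcium through paired EF-hand motifs and usually act as dimers. Inside cells they take hold of partner proteins when calcium rises, among them the annexins, which bind membranes. S100A10 is the exception, because it has lost the ability to bind calcium and instead forms a stable complex with annexin A2 that binds plasminogen at the cell surface. Some members leave the cell, in particular S100A8 and S100A9, which together form calprotectin in neutrophils and monocytes and are read by the receptors RAGE and TLR4. S100G, also called calbindin-D9k, buffers calcium in intestinal and renal epithelium and is a known target of the vitamin D receptor. In liver cancer, genes of this family are widely followed as markers of inflammation, of invasion and of altered differentiation.

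In the mouse, 9 of the 10 genes lie on chromosome 3 and S100g lies on the X chromosome (GRCm38, GENCODE). On chromosome 3, S100a1 (chr3:90511034-90514392, minus strand), S100a13 (chr3:90514435-90524581) and S100a16 (chr3:90537254-90543151) follow each other within 32.1 kb, with S100a14 between the last pair. The same block continues with S100a4 (chr3:90603771-90606045), S100a6 (chr3:90612882-90624181), S100a8 (chr3:90668978-90670035) and S100a9 (chr3:90692632-90695721, minus strand), which brings 7 of the genes into 185 kb. A separate pair lies 2825 kb further on, where S100a11 (chr3:93520488-93526287) and S100a10 (chr3:93555080-93564643) are the only protein-coding genes in a stretch of 44.2 kb. S100g spans chrX:162961992-162964599 on the minus strand. Some of these genes are read with doubt. S100a1 and S100a13 are transcribed away from each other, 42 bases apart in GENCODE but with 98 shared bases in the gene spans of RefSeq, and the strand setting of the counting is not given in the sources used here. S100a11 has processed pseudogenes that match its transcript at 99.31% over 288 bases (Gm12854) and 98.65% over 297 bases (Gm7665), S100a4 shares 302 bases at 100% with the transcript Gm42674, and how reads shared with them were treated is not given either.

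The promoters are shown because the tumor classes differ in pathways that end on known DNA motifs. AP-1, the factor of Fos and Jun proteins, binds TGANTCA, the TCF/LEF factors that β-catenin joins bind CTTTGNT, and the TATA box was searched as TATAAA, each on both strands. RefSeq (GRCm38.p6) gave 10 promoter windows for 9 of the 10 genes, S100a16 having 2 starts and S100a10 no entry. Each window ran from 250 bases before to 50 bases after the start. These 30-base stretches, written 5′ to 3′ on the strand of the gene, hold the matches that lie wholly before the start, with the motif in capitals.
S100a11, AP-1 at position -136 (chr3:93520349-93520378): cagagacctgtTGAGTCAcagggactacaa
S100a11, AP-1 at position -38 (chr3:93520447-93520476): cgggcacagccTGAGTCAggctgaggggcg
S100a16, AP-1 at position -192 of the second start (chr3:90540943-90540972): gaccaccttttTGAATCAgatggtgtgtgc
S100g, TCF/LEF on the opposite strand at position -44 (chrX:162964625-162964654): cttaaatagtaAACAAAGgggaatttcaca
S100a4, TATA box at position -31 (chr3:90603727-90603756): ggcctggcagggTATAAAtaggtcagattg
S100a8, TATA box at position -30 (chr3:90669029-90669058): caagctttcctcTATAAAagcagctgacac
S100a11 thus carries a pair of AP-1 matches, a motif that reads the same on both strands. The AP-1 motif was found in 2 of the 10 windows, against 7.81% of the 32851 promoter windows of all genes. TCF/LEF matches were found in 1 of the 10, against 18.6% of all. The letters TATAAA were present in 4 windows (S100a4, S100a8, S100a9 and S100g), against 13.6% of all promoter windows. In S100a9 and S100g they begin at the start itself (position 0) and not before it, as they do in S100a4 and S100a8. A match is a run of letters and not a measured binding site.

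In non-tumoral liver, S100a1 was the most abundant transcript of the family and S100g the least. Per kilobase of exon, so that genes can be compared, the mean level over the 6 livers was 224 CPM per kb for S100a1, 103 for S100a10, 32.1 for S100a13 and 27.2 for S100a16, the ranges of S100a1 and S100a10 standing clear of their neighbors in the order and those of S100a13 and S100a16 overlapping. S100a11, S100a9, S100a8, S100a4 and S100a6 followed between 7.99 and 2.71 CPM per kb, with ranges that overlapped from each gene to the next, and S100g stood at 0.0986 CPM per kb. In the 6 tumors, the order began with S100a10 at 178 CPM per kb, S100a1 at 111 and S100a11 at 35.2. The range of each of these overlapped that of the gene after it.

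**Figure D1:**
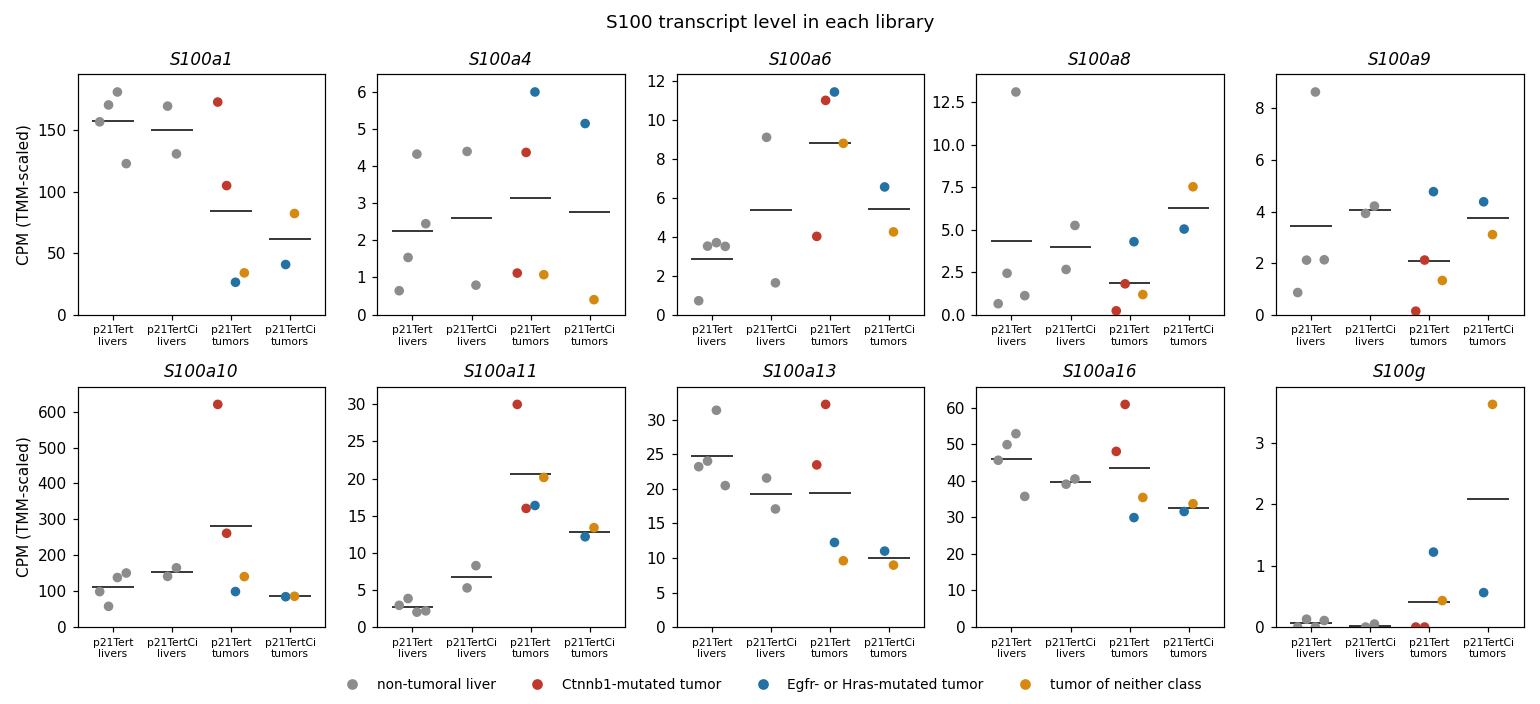
Level of each of the 10 S100 genes in each of the 12 libraries, in CPM scaled by TMM (vertical axes start at 0 and differ between panels), for p21Tert livers (n = 4), p21TertCi livers (n = 2), p21Tert tumors (n = 4) and p21TertCi tumors (n = 2). Points are libraries colored by tumor class and lines are group means; S100a11 is higher in all 6 tumors than in any liver, and the 2 Ctnnb1-mutated tumors hold the highest levels of S100a10.

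S100a11, a partner of annexin A1 named calgizzarin, was the member with the largest difference between p21Tert tumors and livers, which is the value it was chosen by. Its level was 2.93, 3.84, 2.18 and 2.00 CPM in the livers p_961, p_663, NT_992 and p_941, and 29.999, 15.98, 20.2 and 16.4 CPM in T-HCC662, T-HCC663, T-HCA992 and T-HCC941. In p21TertCi mice it was 5.28 and 8.27 CPM in the livers L981_CI and L984_CI and 12.2 and 13.4 CPM in TCi-HCC981 and TCi-HCA984. All 6 tumors lay above all 6 livers, a pattern held by 2.79% of the 15182 genes tested and by no other member, and each tumor exceeded the liver of its own mouse by 1.62-fold to 10.2-fold. As a description, the log2 difference between p21Tert tumors and livers was 2.91 (SE 0.31), a fitted fold of 7.51, and it lay between 2.67 and 3.12 when any 1 library was left out.

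The p21TertCi libraries, which had no part in the choice, allow the tumor-against-liver comparison to be tested for all members. There S100a11 was 1.89-fold higher in the 2 tumors (log2 difference 0.92, SE 0.41), but its adjusted p of 0.461 (edgeR's quasi-likelihood test) did not pass. No gene did in that comparison (0 of 15182, 0%), whereas 10.7% of genes had an unadjusted p under 0.05 and DESeq2 called 375 genes, none of them a listed S100 gene. The groups of S100a11 did not overlap, which 20.8% of all genes also showed in the same direction with 2 libraries a side. In the livers, as a description, those of p21TertCi mice were above every p21Tert liver, as 7.06% of genes were, and their tumors were below every p21Tert tumor. The tumor-to-liver difference in p21TertCi mice minus that in p21Tert mice was -1.99 on the log2 scale (SE 0.51), given without a test because it holds the contrast that chose the gene. Over all genes this difference between genotypes was called for 0 of 15182 (0%), with 3.66% at an unadjusted p under 0.05 and 10 calls by DESeq2. In bulk tissue, a lower level can come from fewer cells of a type or from less RNA per cell, and these cannot be told apart.

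S100a11 overlapped between tumor classes. These values are a description without a test, because the level in p21Tert tumors was used to choose the gene. S100a11 averaged 23.0 CPM ± 9.91 (SD, n = 2) in Ctnnb1-mutated tumors and 15.5 CPM ± 3.56 (SD, n = 4) in the others, with overlapping values (log2 difference 0.57, SE 0.51). Tumors with an Egfr or Hras mutation averaged 14.3 CPM and those of neither class 16.8 CPM, again with overlap.

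S100a10, the annexin A2 partner, differed between tumor classes. It was read at 98.7, 57.7, 138 and 151 CPM in the p21Tert livers p_961, p_663, p_941 and NT_992 and at 141 and 165 CPM in the p21TertCi livers L981_CI and L984_CI. In the Ctnnb1-mutated tumors T-HCC662 and T-HCC663 it reached 620.2 and 261 CPM, and in T-HCC941, TCi-HCC981, T-HCA992 and TCi-HCA984 it was 98.8, 84.5, 140.5 and 85.7 CPM. Both Ctnnb1-mutated tumors were therefore above every other library, while each of the other 4 tumors was below the liver of its own mouse, at 0.519 to 0.933 of it. S100a10 was up-regulated 4.33-fold in Ctnnb1-mutated against other tumors (log2 difference 2.11, SE 0.41, adjusted p = 0.00965 by edgeR). Without T-HCC662 the log2 difference was 1.36 and the call did not hold (adjusted p = 0.127), nor did it hold against the other 2 p21Tert tumors alone (adjusted p = 0.053). It held with each mouse as a block (adjusted p = 0.0115), but not with the block when T-HCC662 and the liver p_961, whose pairing is an assumption, were left out (adjusted p = 0.0973). Between p21Tert tumors and livers the log2 difference was 1.33 (SE 0.52) and fell to 0.59 without T-HCC662, and between p21TertCi tumors and livers it was -0.85 (SE 0.72, adjusted p = 0.709 by edgeR).

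Annexin A2, which S100A10 joins, was followed among 16 binding partners of S100 proteins. Anxa2 was read at 7.00, 15.8, 6.94 and 22.1 CPM in p21Tert livers and at 254, 146, 98.6 and 136 CPM in the matching tumors. The p21TertCi livers had 34.1 and 28.5 CPM and their tumors 74.7 and 91.6 CPM. All tumors thus exceeded all livers in Anxa2, as they did in S100a11, whereas S100a10 did so in the Ctnnb1-mutated tumors and in no other. Anxa2 did not pass the test between Ctnnb1-mutated and other tumors (log2 difference 1.01, SE 0.56, adjusted p = 0.243 by edgeR). Anxa1, the partner of S100A11, was low at 1.62 to 5.40 CPM in livers and 2.15 to 12.5 CPM in tumors, and it is named here after its values were seen.

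**Figure D2:**
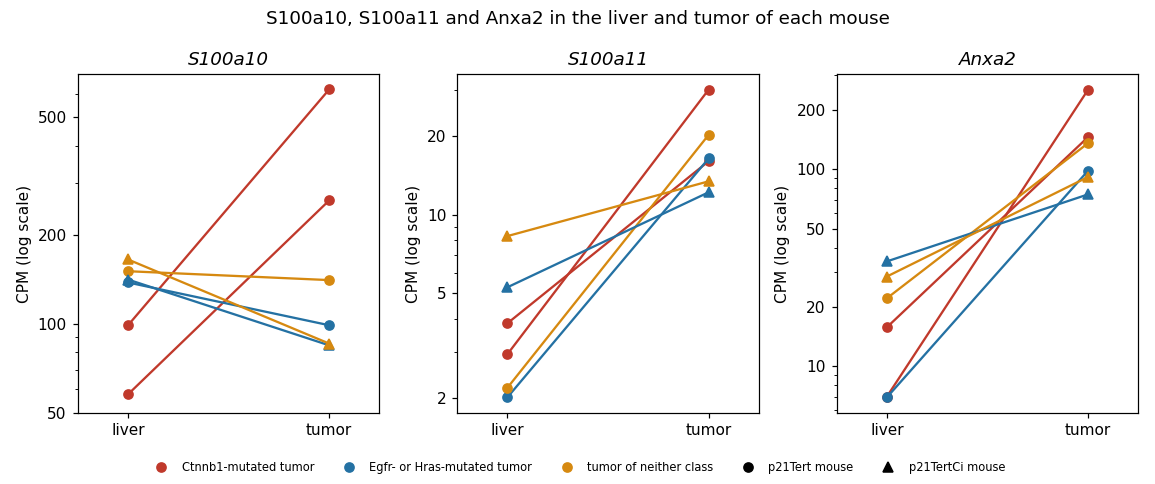
Level in CPM (log axes) of S100a10, S100a11 and the annexin gene Anxa2 in the liver and tumor of each of 6 mice, with a line joining the samples of one mouse; circles are p21Tert mice, triangles p21TertCi mice and colors tumor classes. S100a11 and Anxa2 are higher in the tumor in 6 of 6 mice, S100a10 in 2 of 6, both with a Ctnnb1-mutated tumor.

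S100a1, S100a13 and S100a16, the neighbors at the start of the chromosome 3 block, were lower in the tumors without a Ctnnb1 mutation than in the livers. S100A1 is known as a regulator of calcium release in muscle, S100A13 as a carrier of fibroblast growth factor 1 out of the cell, and S100A16 as a broadly expressed member. S100a1 was read at 157, 171, 181 and 123 CPM in the p21Tert livers p_961, p_663, p_941 and NT_992 and at 169.8 and 131 CPM in the p21TertCi livers L981_CI and L984_CI. It was 173 and 105 CPM in the Ctnnb1-mutated tumors T-HCC662 and T-HCC663, against 26.3, 40.8, 34.0 and 82.4 CPM in T-HCC941, TCi-HCC981, T-HCA992 and TCi-HCA984. The 4 other tumors were below every liver and below both Ctnnb1-mutated tumors, of which T-HCC662 lay within the range of the livers and T-HCC663 beneath it.

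For S100a13 the 4 other tumors were again below every liver and both Ctnnb1-mutated tumors, with 17.1 to 31.4 CPM over the 6 livers (median 22.4), 23.5 and 32.2 CPM in T-HCC662 and T-HCC663, and 12.2, 11.0, 9.60 and 8.97 CPM in T-HCC941, TCi-HCC981, T-HCA992 and TCi-HCA984. S100a16 ranged from 35.7 to 52.9 CPM in the livers (median 43.1), was 48.1 and 60.9 CPM in the Ctnnb1-mutated tumors, and 29.9, 31.6, 35.4 and 33.7 CPM in the others, listed in the same order. For S100a16 the gap was small, because the highest of these 4 tumors had 35.4 CPM and the lowest liver 35.7 CPM. In the comparison of the 4 tumors without a Ctnnb1 mutation with all 6 livers, 3 of the 10 genes were lower in every tumor (S100a1, S100a13 and S100a16, against 7.57% of all genes), and 2 were higher in every tumor (S100a11 and S100g, against 8.66%). These libraries overlap those that chose the family, and S100g passed the filter through these 4 tumors, so the counts are given as a description.

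All 3 neighbors were higher in Ctnnb1-mutated than in other tumors. The fold was 3.15 for S100a1 (log2 difference 1.65, SE 0.33, adjusted p = 0.0112), 2.68 for S100a13 (1.42, SE 0.23, adjusted p = 0.0043) and 1.67 for S100a16 (0.74, SE 0.19, adjusted p = 0.03), each by edgeR. With each mouse as a block the adjusted p was 0.12 for S100a1, 0.0571 for S100a13 and 0.296 for S100a16, so that none was called. Leaving out 1 tumor at a time kept S100a13 called in 6 of 6 fits, S100a1 in 5 of 6, the exception being T-HCC662 (adjusted p = 0.117), and S100a16 in 0 of 6 (adjusted p from 0.0541 to 0.185). Fibroblast growth factor 1, the cargo of S100A13, did not pass this test (Fgf1, mean of 97.6 CPM ± 17.0, SD, n = 2, against 60.3 CPM ± 43.6, SD, n = 4, adjusted p = 0.308 by edgeR).

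In the p21TertCi mice, both tumors were below both livers for S100a1, S100a10, S100a13 and S100a16, 4 of the 10 genes against 22.7% of all genes. The log2 difference was -1.29 for S100a1 (SE 0.74), -0.95 for S100a13 (SE 0.49) and -0.28 for S100a16 (SE 0.31), and edgeR gave adjusted p values of 0.573, 0.513 and 0.789, so that none passed. In the p21Tert mice, where both classes of tumor are present, the difference was -0.90 for S100a1 (SE 0.52), -0.35 for S100a13 (SE 0.34) and -0.08 for S100a16 (SE 0.22), given as a description.

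**Figure D3:**
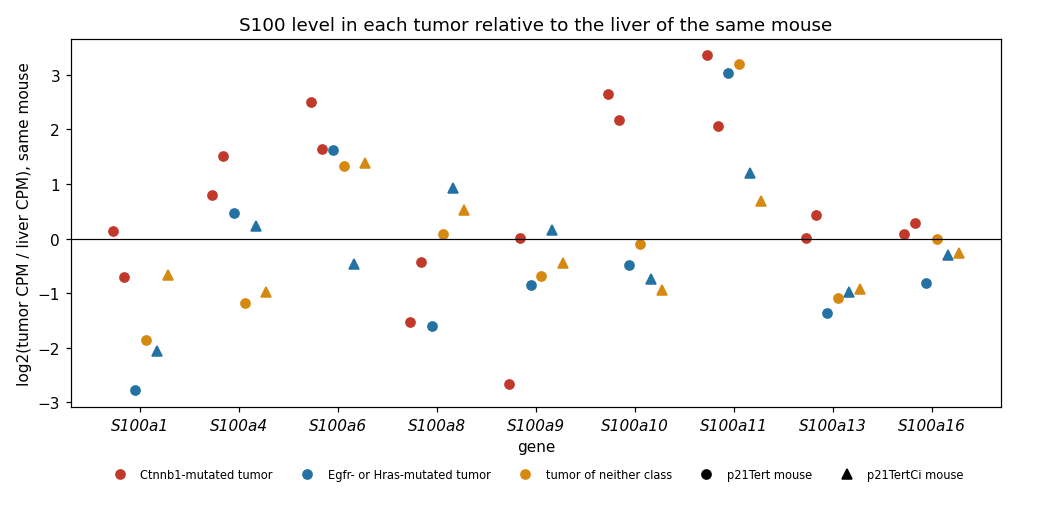
Ratio of tumor to liver CPM in each of 6 mice on a log2 scale, for the 9 genes read in all 12 libraries (S100g is left out because it was at 0 in some); the line marks no difference, circles are p21Tert mice, triangles p21TertCi mice and colors tumor classes. S100a11 lies above the line in 6 of 6 mice, and S100a10, S100a13 and S100a16 lie above it in the 2 mice with a Ctnnb1-mutated tumor and in no other.

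Leaving S100g aside, 4 of the other 9 genes were called between Ctnnb1-mutated and other tumors, against 12.5% of the 15182 genes tested. All 4 were higher in Ctnnb1-mutated tumors (S100a1, S100a10, S100a13 and S100a16, background 6.76% upward and 5.73% downward). The groups of the same 4 did not overlap, against 18.1% of all genes upward and 19.1% downward. The median log2 difference was 0.50 over the 10 genes, and the same with S100g at its bound, and -0.004 over all genes. Of the 4 calls, 2 held against the other p21Tert tumors alone (S100a1 and S100a13), 1 with each mouse as a block (S100a10) and 1 without T-HCC662 (S100a13), while 3 held when any 1 of the other tumors was left out (S100a1, S100a10 and S100a13).

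Markers of other cells were not level between these classes. The Ctnnb1-mutated tumors were below the other 4 in the summed level of 7 fibroblast and stellate cell markers (26.3 and 83.7 CPM against 156 to 389 CPM), of 5 bile duct cell markers (17.7 and 35.0 CPM against 60.2 to 1063 CPM) and of 5 endothelial cell markers (50.2 and 85.3 CPM against 125 to 224 CPM). The bile duct sum was mostly Spp1 and Sox9. Spp1 was 4.12 CPM in TCi-HCC981, below T-HCC662 and T-HCC663 (13.8 and 30.1 CPM), and 264 to 1037 CPM in T-HCC941, T-HCA992 and TCi-HCA984. Krt7, Krt19 and Epcam were at 2.95 CPM or less in every library. Krt19 averaged 1.10 CPM in Ctnnb1-mutated against 0.517 CPM in other tumors, whereas Krt7 and Epcam averaged lower. These bile duct markers are named after their values were seen. The 5 hepatocyte markers summed to 37276 and 20321 CPM, against 65640 to 93156 CPM in the other tumors, with Alb and Serpina1a lower (log2 differences -2.47 and -1.94, adjusted p = 0.0394 and 0.0128 by edgeR) and Cyp2e1, an enzyme of pericentral hepatocytes, higher (3.75, adjusted p = 0.00591 by edgeR). Called lower were 1 of 5 bile duct markers (Sox9), 1 of 7 fibroblast and stellate cell markers (Pdgfrb) and 2 of 5 endothelial markers (Pecam1 and Kdr), against 5.73% of all genes. The part of these cells in the S100 differences was not tested.

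**Figure D4:**
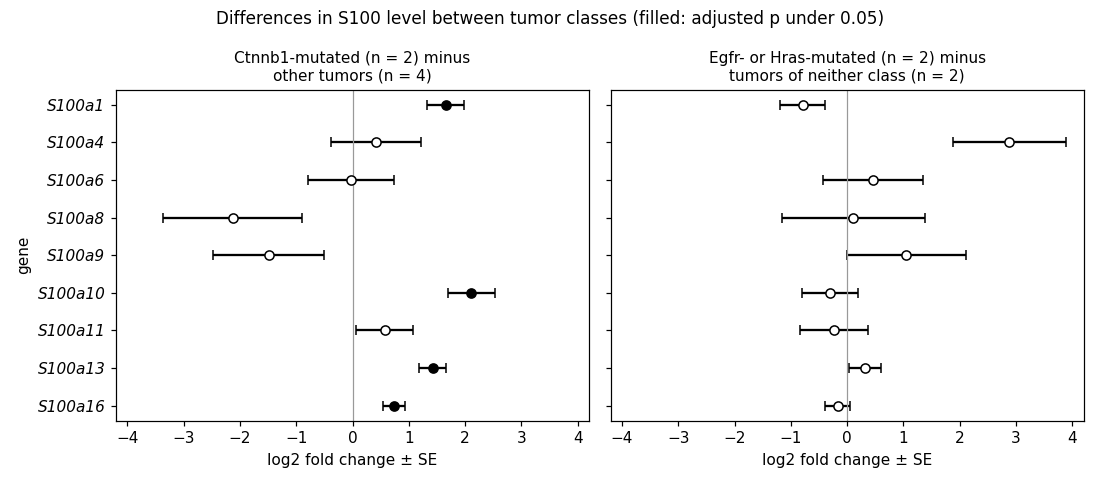
Log2 fold change with its standard error for 9 S100 genes between Ctnnb1-mutated (n = 2) and other tumors (n = 4, left), and between Egfr- or Hras-mutated tumors (n = 2) and tumors of neither class (n = 2, right), from edgeR fits over all 12 libraries. Filled circles passed an adjusted p of 0.05; they are S100a1, S100a10, S100a13 and S100a16 on the left and none on the right, and S100g is left out because it was at 0 in both Ctnnb1-mutated tumors.

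S100g had at most 2 reads in any liver, none in the Ctnnb1-mutated tumors and more in each of the other tumors. The 0 reads are those of T-HCC662 and T-HCC663, where a count of 0 allows up to 0.134 and 0.13 CPM. In the other tumors it had 23 reads in T-HCC941, 12 in T-HCA992, 11 in TCi-HCC981 and 63 in TCi-HCA984, or 1.22, 0.43, 0.56 and 3.62 CPM. All 4 were above every other library, and TCi-HCA984 held 63 of the 109 reads. Against the limit of 3 reads a library, the lowest of the 4 was at least 3.20-fold higher than the level in either Ctnnb1-mutated tumor. No test is given, because the gene entered the fit through these 4 tumors.

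In p21TertCi mice S100g had 74 reads in the tumors and 1 in the livers. This is a description without an interval, because the gene entered the fit through tumors in which it is high. Of the 74 reads, 63 came from TCi-HCA984. No fold is given between livers of the genotypes, since all of them are under the limit of 3 reads.

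The vitamin D receptor gene Vdr, whose protein regulates S100g in the intestine, was near 0 in the livers (0 to 0.422 CPM). It was read at 2.29, 3.39, 0.68 and 2.80 CPM in T-HCC663, T-HCC941, T-HCA992 and TCi-HCC981, and at 0.0894 and 0.345 CPM in T-HCC662 and TCi-HCA984. TCi-HCA984, highest in S100g, was therefore low in Vdr, and T-HCC663, with no S100g read, was not. Of 8 vitamin D and calcium genes, 2 were expressed enough to be tested (Vdr and the calcium pump gene Atp2b1). Of these, 0 were called between Ctnnb1-mutated and other tumors, against 12.5% of all genes. In p21Tert tumors against livers 0 were called, against 6.49% of all genes. The other comparisons called no gene at all (0 of 15182), so they cannot tell whether these genes differed.

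S100a6 and S100a4 were low and variable. S100A6, calcyclin, binds the ubiquitin-ligase adaptor encoded by Cacybp, and S100A4 binds non-muscle myosin (Myh9) and is prominent in fibroblasts and macrophages. S100a6 was read at 0.714, 3.52, 3.70 and 3.51 CPM in p21Tert livers and at 4.02, 11.0, 11.4 and 8.81 CPM in the tumors of the same mice, while p21TertCi mice had 9.12 and 1.63 CPM in livers and 6.57 and 4.25 CPM in tumors. In p21Tert mice the tumors lay just above the livers, from 4.02 CPM upward against 3.70 CPM at most. It was 1 of 2 members without overlap there, the other being S100a11, against 8.13% of all genes. The log2 difference was 1.62 (SE 0.61) as a description. In p21TertCi mice it was 0.01 (SE 0.83, adjusted p close to 1 by edgeR), with the tumor below the liver in the mouse of TCi-HCC981. The liver of that mouse had the highest macrophage marker sum, and the part of macrophages in the S100a6 reads was not tested.

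S100a4 had the largest fitted difference of the 10 genes between Egfr- or Hras-mutated tumors and those of neither class. It reached 5.99 and 5.14 CPM in T-HCC941 and TCi-HCC981, against 1.07 and 0.402 CPM in T-HCA992 and TCi-HCA984, 1.12 and 4.36 CPM in the Ctnnb1-mutated T-HCC662 and T-HCC663, and 0.643 to 4.39 CPM in the livers. The log2 difference between the first pair and the second was 2.88 (SE 1.01), which did not pass adjustment (adjusted p = 0.524 by edgeR). In the same mice S100a4 was nearly as high in the liver, at 4.32 CPM in the liver p_941 and 4.39 CPM in the liver L981_CI, and the tumor-to-liver ratio was 1.39 and 1.17. Macrophage and monocyte markers summed to 224 and 736 CPM in the Egfr- or Hras-mutated tumors against 187 and 156 CPM in tumors of neither class, and 5 lymphocyte markers to 20.6 CPM on average against 4.73 and 2.18 CPM. Fibroblast and stellate cell markers summed to 156 and 213 CPM in T-HCC941 and TCi-HCC981, against 389 and 202 CPM in T-HCA992 and TCi-HCA984. Whether any of these cells contribute to the S100a4 reads was not tested.

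Between Egfr- or Hras-mutated tumors and tumors of neither class, 0 of 15182 genes were called (0%), with 8.77% at an unadjusted p under 0.05 and 105 calls by DESeq2, none of them a listed S100 gene. S100a4, S100a9 and S100a13 were higher without overlap, 3 of 10 genes against 18.9% of all, and S100a16 was lower without overlap, 1 of 10 against 21.4%. With 2 tumors on each side, these counts are given beside the background and are not a test. The Egfr- or Hras-mutated tumors were carcinomas and those of neither class adenomas, so mutation class and diagnosis cannot be told apart here.

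S100a8 and S100a9, the subunits of calprotectin, were low in every library. Neither was called between Ctnnb1-mutated and other tumors, where 12.5% of all genes were. The other comparisons in which they were tested called no gene at all (0 of 15182). S100a8 was read at 0.643, 2.43, 13.1 and 1.12 CPM in the p21Tert livers p_961, p_663, p_941 and NT_992, at 2.66 and 5.25 CPM in the p21TertCi livers, at 0.224, 1.81, 4.29 and 1.18 CPM in the p21Tert tumors, and at 5.04 and 7.53 CPM in the p21TertCi tumors. S100a9 had 0.857, 2.11, 8.64 and 2.13 CPM in the p21Tert livers, 3.93 and 4.21 CPM in the p21TertCi livers, 0.134, 2.12, 4.77 and 1.32 CPM in the p21Tert tumors, and 4.38 and 3.10 CPM in the p21TertCi tumors. The liver p_941 was the highest library for both genes and T-HCC662 the lowest, with 5 reads of S100a8 and 3 of S100a9.

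The liver p_941 was also highest in 5 of 9 neutrophil markers, all granule genes, with 1.70 CPM of Mpo, 2.16 of Elane, 2.00 of Ngp, 3.39 of Camp and 1.31 of Ltf. The liver L981_CI was next for Mpo, with 1.18 CPM, and the granule genes Mpo, Elane, Ngp, Camp and Ltf were at 0 in 3, 2, 5, 5 and 6 of the 12 libraries. The other 4 markers were highest elsewhere, Retnlg and Csf3r in L981_CI, Cxcr2 in L984_CI and Mmp8 in TCi-HCC981. These markers are named after their values were seen. All 9 together summed to 21.1 CPM in the liver p_941 and 27.5 CPM in the liver L981_CI, the latter mostly through Csf3r at 20.9 CPM, and to 4.48 to 18.5 CPM in the other 10 libraries. S100a8 and S100a9 in the liver L981_CI, at 2.66 and 3.93 CPM, did not stand out in the same way.

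Between Ctnnb1-mutated and other tumors the log2 difference was -2.13 for S100a8 (SE 1.24) and -1.49 for S100a9 (SE 0.99), with overlapping groups and adjusted p values of 0.27 and 0.335 by edgeR. In p21TertCi mice, S100a8 differed by 0.67 (SE 1.32, adjusted p = 0.895) and S100a9 by -0.12 (SE 1.19, adjusted p = 0.986), again by edgeR. In p21Tert mice the tumor-to-liver difference was -1.20 for S100a8 (SE 0.96) and -0.72 for S100a9 (SE 0.85) as a description, and both turned to higher levels in tumors, 0.42 and 0.29, when the liver p_941 was left out.

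**Figure D5:**
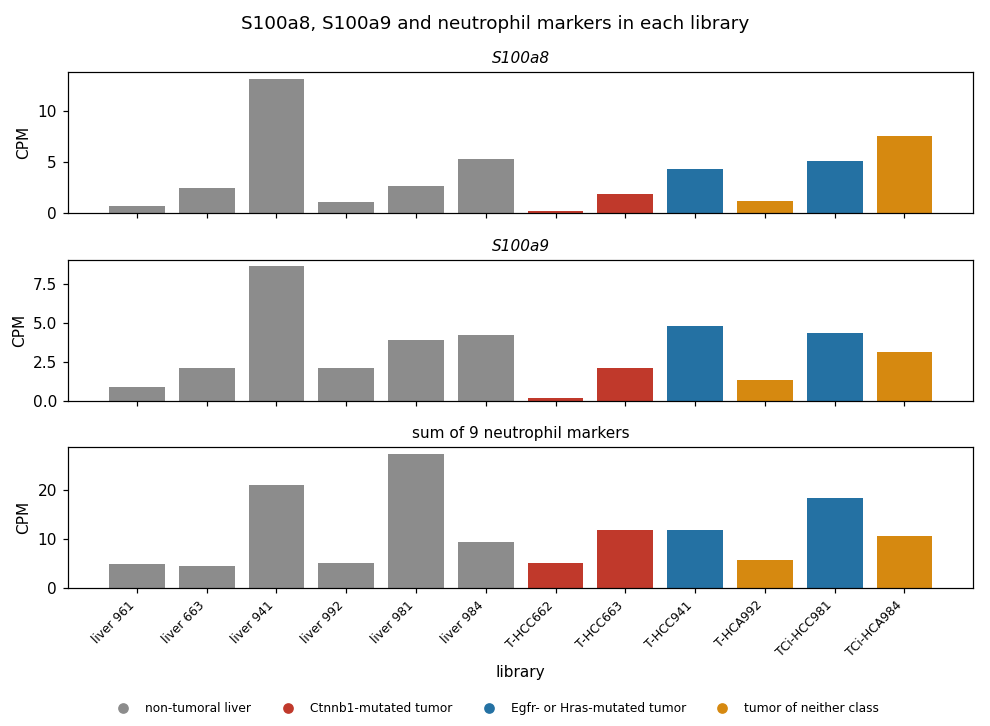
Bars give S100a8, S100a9 and the summed level of 9 neutrophil markers in CPM in each of the 12 libraries, colored by class. The liver p_941 is highest for S100a8 (13.1 CPM) and S100a9 (8.64 CPM), whereas the marker sum is highest in the liver L981_CI (27.5 CPM) and next in the liver p_941 (21.1 CPM).

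Between p21TertCi and p21Tert livers, edgeR called 0 of 15182 genes (0%), with 4.98% at an unadjusted p under 0.05 and 42 calls by DESeq2, none of them a listed S100 gene. S100a1 differed by -0.07 (SE 0.63), S100a16 by -0.21 (SE 0.27), S100a13 by -0.36 (SE 0.42) and S100a10 by 0.46 (SE 0.61) on the log2 scale, with adjusted p values from 0.973 to 0.999 by edgeR. For S100a6 the difference was 0.91 (SE 0.71, adjusted p = 0.941 by edgeR). With 2 livers on one side, differences of this size could not be told from the spread between mice, and S100a11, whose p21Tert livers were used to choose it, has only its description above (log2 difference 1.303, SE 0.35).

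Receptors and partners of S100 proteins were counted from lists. Of 7 receptor genes, 0 were called between Ctnnb1-mutated and other tumors, against 12.5% of all genes; in the p21TertCi mice and between the other tumor classes no gene at all was called (0%). Cd14, the co-receptor of TLR4, was read at 0.714 to 2.78 CPM in p21Tert livers and at 4.29, 22.0, 108 and 33.2 CPM in the p21Tert tumors, and at 11.9 and 5.70 CPM in p21TertCi livers and 142 and 81.7 CPM in their tumors. Both receptors that calprotectin is known for were low, Ager (RAGE) at 0.425 to 3.84 CPM and Tlr4 at 0 to 8.91 CPM over all libraries, both named after their values were seen. Bsg, a receptor of S100A9 that hepatocytes express, was the most abundant, at 411 to 996 CPM.

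Of 16 binding partners, 15 were tested and 0 were called between Ctnnb1-mutated and other tumors, against the same 12.5%. By level the first 4 were Myh9, Anxa6, Fgf1 and Anxa2, of which Myh9 came nearest between Ctnnb1-mutated and other tumors (log2 difference -1.38, SE 0.43, adjusted p = 0.0551 by edgeR). In p21Tert tumors against livers, where 6.49% of all genes were called and 4.2% upward, 1 of the 10 S100 genes was called (S100a11), 1 of 7 receptors (Cd14) and 2 of 15 partners (Anxa2 and Iqgap1), all higher in tumors. Iqgap1 is named after its values were seen. That contrast chose the family, so these counts are no more than a description.

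In the plasminogen system, which S100A10 with annexin A2 recruits, 1 of 6 genes was called between Ctnnb1-mutated and other tumors, a share near the 12.5% of all genes. Serpinf2, the gene of the plasmin inhibitor α2-antiplasmin, was lower in Ctnnb1-mutated tumors, at 249 and 558 CPM in T-HCC662 and T-HCC663 against 2003, 1444, 2181 and 1612 CPM in the other 4 (log2 difference -2.15, SE 0.44, adjusted p = 0.0123 by edgeR). Plasminogen itself (Plg) was 777 and 749.9 CPM in the Ctnnb1-mutated tumors and 1142 to 2322 CPM in the others, and did not pass (log2 difference -1.23, SE 0.39, adjusted p = 0.0591 by edgeR). The activator gene Plat was 67.3 and 52.7 CPM in T-HCC662 and T-HCC663 against 3.46 to 8.23 CPM in the other tumors, and did not pass either (3.61, SE 1.19, adjusted p = 0.0668 by edgeR). Plg and Plat are named after their values were seen. The S100a10 level was highest in the same 2 tumors.

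Among 15 other genes with an S100-type domain, 13 were in the files and 2 were expressed enough to enter the fit. These were the S100-fused genes Tchh and Tchhl1, which code for proteins of hair and skin. Tchh was read at 5.59 and 4.06 CPM in T-HCC662 and T-HCC663 against 0.204 to 1.26 CPM in the other tumors and 0.256 to 2.62 CPM in the livers, and was higher in Ctnnb1-mutated than in other tumors (log2 difference 3.30, SE 0.69, adjusted p = 0.0131 by edgeR), where 6.76% of all genes were. Tchhl1 was read at 1.03 and 0.691 CPM in the Ctnnb1-mutated tumors and at 0 in the other 4, and no test is given because it entered the fit through the Ctnnb1-mutated tumors alone. Both were low in absolute terms, at most 5.59 and 1.03 CPM.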

How the data were processed

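RNA-seq libraries came from 6 mice, each giving 1 tumor and 1 non-tumoral liver. The authors deposited raw counts of read pairs per gene symbol: poly(A) libraries were sequenced as paired-end reads, low-quality reads were removed, and reads were aligned with Subread-align to an mm10 reference that also held mCherry, then counted with featureCounts 1.6.4, as the study's methods and the submitters' processing notes state. The annotation release, the strand setting and the treatment of multi-mapping reads are not given in the sources used here, and neither is the sequencing run of each sample, which the study's own model used as a term.

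From the counts, 15182 of 24421 symbols that passed edgeR's filterByExpr on the 4 groups were tested. Counts were scaled by TMM and fitted in 1 model over all 12 libraries with edgeR 4.0.16 in R 4.3.3 (quasi-likelihood test, Benjamini-Hochberg adjustment over all genes tested, threshold 0.05). CPM divide each count by the library size after TMM, times 1000000, and floors (3 counts) cover counting error only. Genes similar to the S100 transcripts were found with minimap2 2.31. The tests were tried on simulated data. Tumor class was taken from the exome mutations the study describes for each tumor. The S100 genes, the gene lists and the motifs were chosen with earlier results of these data known. The contrast of p21Tert tumors with p21Tert livers chose the family, so it and the difference between genotypes are given with standard errors and without p-values. All 10 S100 genes are named; from each other list up to 4 genes are named, those called with the smallest p and otherwise those of the highest mean level, and any other gene is said to be named after its values were seen.

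Tumor and liver of one mouse share an animal, so each mouse was also fitted as a block. The deviations of the pair from their group means correlated at 0.176, 0.048, 0.0397, 0.424, 0.532 and 0.532 in the mice of T-HCC662, T-HCC663, T-HCC941, T-HCA992 and, in the other genotype, TCi-HCC981 with TCi-HCA984, and the last pair of values is equal because the groups hold 2 samples. Libraries of one group differed far beyond sampling noise (chi-square per degree of freedom 69.6 to 501), so none was a repeat of another. Alternatives were DESeq2 1.42.0, its RLE size factors in edgeR, no filter on low counts, the block, leaving out each library, and, chosen after seeing the data, edgeR's bias-adjusted fit and the other p21Tert tumors alone as reference.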

Additional observations from a re-analysis of the deposited data

Results flagged for a closer look

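Among 20 sets of values from groups of 4 libraries, 3 held a library far from the other 3 (by a gap of 0.936, 0.856 and 0.837 of the whole range). The cutoff marks about 1 in 20 by chance only for independent, normally distributed values. S100a8 and S100a9 were flagged in the same liver, so the sets cannot be taken as independent and 3 of 20 is not read as an excess. S100a6 in the p21Tert liver p_961 was 0.714 CPM, against 3.51 to 3.70 CPM in the other p21Tert livers. S100a8 in the p21Tert liver p_941 was 13.1 CPM, against 0.643 to 2.43 CPM, and S100a9 in the same liver was 8.64 CPM, against 0.857 to 2.13 CPM. The same liver was highest in 5 of 9 neutrophil markers (Mpo, Elane, Ngp, Camp and Ltf) and not in the other 4 (Retnlg, Cxcr2, Csf3r and Mmp8), the sum of the 9 was higher in L981_CI (27.5 against 21.1 CPM), and the part of neutrophils in these values was not tested.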

How the results depend on the processing

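With 2 to 4 libraries a group, small differences in low genes could not be resolved: reversals of sign under other settings concerned values that had not passed the test. The cause of each change was not tested. The number of genes called rose under DESeq2 to 375 (p21TertCi tumors against livers), 3111 (Ctnnb1-mutated against other tumors), 105 (Egfr or Hras against neither class), 42 (livers between genotypes), 2109 (p21Tert tumors against livers) and 10 (difference between genotypes). In p21TertCi tumors against livers it was 1 with RLE size factors, 2 without the filter, 19 with the bias-adjusted fit and 0 to 7 when 1 library was left out, and between Egfr or Hras and neither class it was 9 with the bias-adjusted fit and 0 to 5 when 1 was left out. Between Ctnnb1-mutated and other tumors it was 441 with each mouse as a block, 57 with the block but without T-HCC662 and the liver p_961, 785 against p21Tert tumors alone and 412 to 1694 when 1 library was left out, and the S100 genes among them numbered 1, 0, 2 and 1 to 4 under these settings, against 5 with S100g counted. In p21Tert tumors against livers it was 649 with the block but without T-HCC662 and the liver p_961 and 240 to 1192 when 1 was left out. That contrast chose the family, so no count of S100 genes is given for these settings.

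Log2 differences that changed sign follow, with ranges for leaving out 1 library. In p21TertCi tumors against livers, S100a4 was -0.28 with the block and ranged from -2.67 to 1.80, S100a6 from -0.75 to 1.72 and S100a9 from -0.39 to 0.10. Between Ctnnb1-mutated and other tumors, S100a4 was -0.36 against p21Tert tumors alone (-0.86 to 1.09), S100a6 was 1.06 with the block and 0.69 with the block but without T-HCC662 and the liver p_961 (-0.93 to 0.52), and S100a9 was 0.46 in the latter. Between Egfr- or Hras-mutated tumors and those of neither class, the block with and without T-HCC662 and the liver p_961 gave -0.80 and -0.80 for S100a6, -0.68 and -0.68 for S100a8, 0.15 and 0.15 for S100a11, -0.15 and -0.15 for S100a13, and 2.90 and 2.88 for S100g. Leaving out 1 library gave -0.69 to 1.97 for S100a8, -0.62 to 0.10 for S100a10, -0.50 to 0.092 for S100a11 and -2.02 to 1.03 for S100g. Between livers, S100a1 ranged from -0.27 to 0.11, S100a4 from -1.48 to 0.97, S100a6 from -0.80 to 1.67, S100a8 from -0.69 to 1.49 and S100a9 from -0.072 to 1.25. No paired analysis was possible because the livers compared between genotypes come from different mice. Outside the tested sign changes, 677 single-gene values and 122 counts of calls kept direction and side of the threshold or moved little. Another 20 for single genes without a test moved further, and 23 single-gene calls were lost.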
